A study of Mus musculus with 8 samples.

Results

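The ubiquitin-specific peptidases (Usp genes) were followed in the testis of mice with and without intact Ctcfl, at postnatal day 23. Members were the probe sets whose gene symbol is Usp followed directly by a number, and this name rule gave 123 of 45101 probe sets and 49 of 22666 gene symbols. Of the 49 genes, 14 had 1 probe set and 35 had 2 or more, with at most 7, for Usp7 and for Usp9x. Another 4 members match a second gene (Usp18, Usp48, Usp49 and Usp50 each have 1 of these), and 24 carry a suffix that marks probes shared by several transcripts. The name is not a perfect guide to the protein, since Usp6nl encodes a Rab GTPase-activating protein and Usp52 is the deadenylase subunit Pan2. Usp35, Usp44 and Usp51 were not analysed here.

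Testis RNA carried the label wildtype in 5 samples (replicates 1, 2, 4, 6 and 7) and Ctcfl mutant in the other 3 (replicates 3, 5 and 8), each on 1 Affymetrix Mouse430_2 array. CTCFL, or BORIS, is the testis paralog of the zinc finger protein CTCF and is found in germ cells just before meiosis. The mutant allele, Ctcfl del, lacks the upstream exons and holds a GFP sequence instead, and the mutants are del/del. The labels call the controls wildtype, whereas the study's text describes heterozygous littermates (del/+), in which case the controls carry 1 copy of the same allele. Nothing in the labels states that each sample came from a separate animal, so p-values measure the spread between these samples. Ctcfl itself was not analysed here, and the genotype labels therefore had no check from the targeted gene.

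USPs form the largest family of deubiquitinases. They are cysteine proteases that remove ubiquitin from proteins or trim ubiquitin chains, and so oppose the E3 ligases that attach it. Some act on histones H2A and H2B, some at the proteasome, and others on endosomes, the endoplasmic reticulum or DNA repair factors. In the male germ line, ubiquitin on histones accompanies the silencing of the X and Y chromosomes in spermatocytes and the exchange of histones in spermatids. A few members are known mainly from testis, among them Usp26 on the X chromosome and the testis forms of Usp2.

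Levels are log2 values per probe set and array, so a difference of 1 is a factor of 2. Array medians lay between 6.40 and 6.45. Meiotic markers were high on every array, with a mean over 11 of 12 spermatocyte genes between 10.90 and 11.21. In earlier results of these data, 2 arrays, wildtype replicate 7 and mutant replicate 8, differed from the rest across all probe sets. Here a mean over 12 spermatid genes was 10.82 and 10.44 on these arrays, against 8.49 to 9.06 on the other wildtype and 8.31 and 8.59 on the other mutant arrays, and a mean over 7 of 8 fat genes was 6.80 and 6.79 against 5.16 to 5.73. No label explains this, and the values below are therefore also given without these arrays where that matters. In whole testis, fewer cells of a type and less RNA per cell cannot be told apart.

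Promoters were examined for letters that CTCF and germ cell factors are known to bind. The RefSeq promoter table used here (GRCm38.p6) was matched by Entrez gene ID for 38 of the 49 genes. This gave 39 windows of 250 bases before the start, with Usp9x and Usp22 among the genes not matched. AGGGGGC, a core within the CTCF motif, was present on either strand in 7 of 39 windows (17.9%) and in 9.43% of all 32851 windows of this length. AACGG, the MYB core, was in 8 of 39 (20.5%) against 14.5%, and TGACG, the core of the cAMP response element, in 10 of 39 (25.6%) against 17.8%. The full palindrome TGACGTCA, which contains TGACG, was in 0 of 39 against 1.55%. The 7 genes with AGGGGGC were Usp4, Usp11, Usp15, Usp27x, Usp32, Usp34 and Usp38. A match describes letters only and is no evidence of binding.

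The windows of 3 X-linked members and of Usp50 are shown, because the values of the X-linked members by array are described below and Usp50 has the widest spread of any member over the 8 arrays. Each runs 5′ to 3′ on the gene's strand, and capitals mark a match to one of these motifs on either strand (GCCCCCT and CCGTT are the reverse strand of AGGGGGC and AACGG). The Usp11 window (chrX:20703659-20703908, plus strand) held all of the shorter motifs. There TGACG began 79 bases before the start, AGGGGGC 57 bases and AACGG 29 bases before it. The Usp27x window (chrX:7375831-7376080, minus strand) held AGGGGGC 248 bases before the start, and the Usp26 window (chrX:51801234-51801483, minus strand) held AACGG 194 bases before it. The Usp50 window (chr2:126783461-126783710, minus strand) held none of these motifs.
Usp11: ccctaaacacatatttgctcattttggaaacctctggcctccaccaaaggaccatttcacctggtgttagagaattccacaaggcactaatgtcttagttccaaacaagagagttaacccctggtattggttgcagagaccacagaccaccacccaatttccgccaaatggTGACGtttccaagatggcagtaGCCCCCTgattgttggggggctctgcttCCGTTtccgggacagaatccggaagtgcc
Usp27x: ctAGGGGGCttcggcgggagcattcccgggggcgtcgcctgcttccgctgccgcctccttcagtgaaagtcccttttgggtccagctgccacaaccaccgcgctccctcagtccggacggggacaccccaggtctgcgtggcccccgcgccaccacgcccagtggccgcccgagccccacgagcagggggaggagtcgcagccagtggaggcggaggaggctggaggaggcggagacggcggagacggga
Usp26: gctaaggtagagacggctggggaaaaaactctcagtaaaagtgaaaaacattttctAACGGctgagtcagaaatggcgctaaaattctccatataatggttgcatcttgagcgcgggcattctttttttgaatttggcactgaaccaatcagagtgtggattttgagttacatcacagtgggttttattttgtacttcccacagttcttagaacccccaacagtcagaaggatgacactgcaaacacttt
Usp50: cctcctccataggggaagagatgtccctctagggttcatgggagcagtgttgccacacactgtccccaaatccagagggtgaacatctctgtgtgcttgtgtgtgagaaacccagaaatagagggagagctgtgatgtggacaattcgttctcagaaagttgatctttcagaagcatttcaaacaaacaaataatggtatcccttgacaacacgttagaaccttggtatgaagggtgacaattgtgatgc

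The first question was whether Usp transcripts differ between the genotypes. No Usp probe set passed the test, and the differences were small. With limma, 0 of 123 members had an adjusted p under 0.05, where 0% of all probe sets did, and the smallest adjusted p was 1.0 for members and for all probe sets alike. At an unadjusted p under 0.05 there were 3 members (2.44%), of Usp9x, Usp25 and Usp29, against 3.47% of all probe sets. Of these, Usp9x and Usp29 were higher in mutant testis (1.63%, against 1.76%) and Usp25 was lower (0.813%, against 1.70%). The 5 wildtype and 3 mutant values overlapped for every member, while 2.70% of all probe sets had no overlap. Differences between the genotype means ranged from -0.33 to 0.31, with a median of 0.021 against 0.0032 for all probe sets. Of the 123 members, 77 (62.6%) were higher in mutant testis, against 51.5% of all probe sets.

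The arrays bounded most of these differences. The median standard error of a member's difference was 0.088. For 113 members (91.9%) the 95% interval of the difference lay inside -0.5 to 0.5, against 93.1% of all probe sets. For the other 10 members a difference of 0.5 or more was within the interval, 3 of Usp9x, 2 each of Usp12 and Usp50, and 1 each of Usp25, Usp26 and Usp31. Most members varied little between the 8 arrays, in a share near that of all probe sets. The values of 91 members (74.0%) spread over less than 0.5, against 74.8% of all probe sets. Those of 3 members (2.44%), 2 of Usp50 and 1 of Usp12, spread over at least 1, against 3.49%. Usp32, a membrane-linked deubiquitinase with EF hands, spread least at its main probe set, from 12.16 on wildtype replicate 2 to 12.24 on mutant replicate 5.

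**Figure D1:**
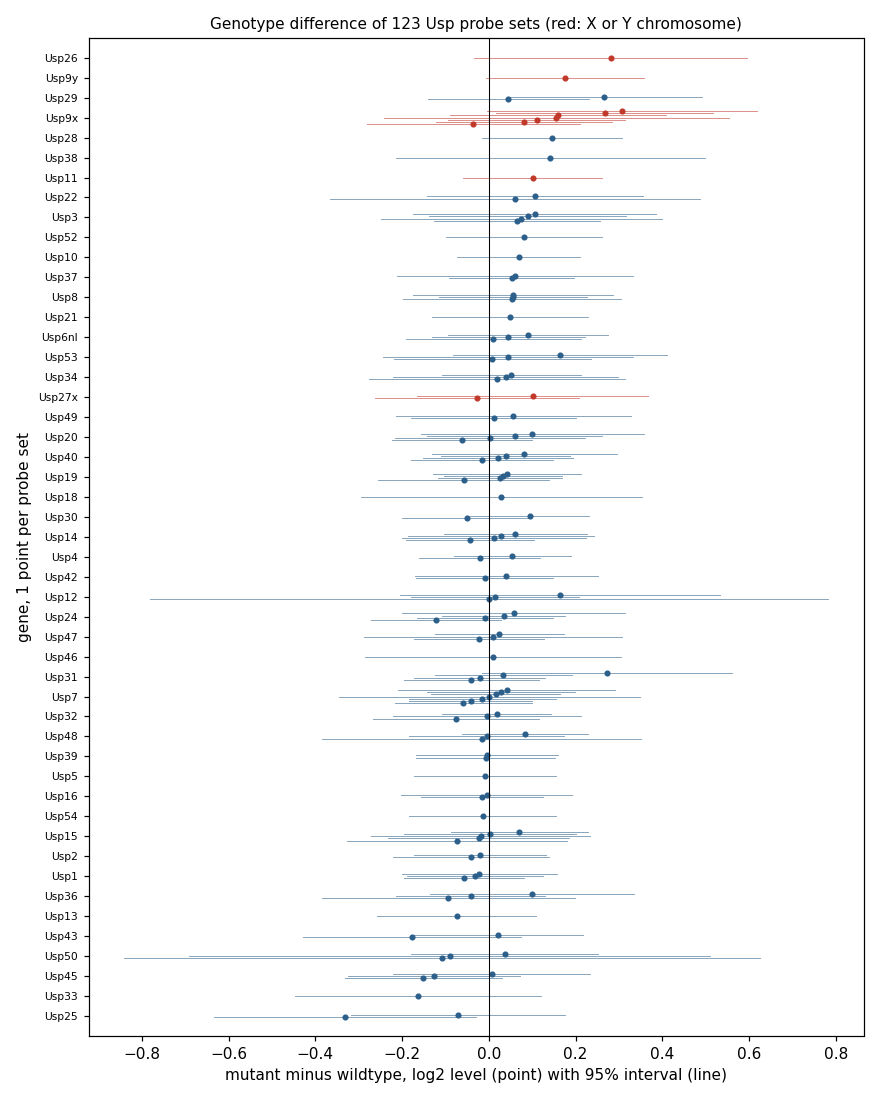
The horizontal axis gives mutant minus wildtype in log2 units for each of the 123 Usp probe sets (points) with its 95% interval (lines), 1 row per gene, red for the X or Y chromosome. Only 3 intervals leave out 0, those of 1 probe set each of Usp9x, Usp25 and Usp29, and the differences lie between -0.33 and 0.31.

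Different probe sets of a gene often disagreed in sign. Among the 35 genes with 2 or more probe sets, 10 were higher in mutant testis at every probe set, 5 lower at every probe set and 20 mixed. Usp3, Usp8, Usp22 and Usp34 were among the 10, and Usp1, Usp2 and Usp25 among the 5. None of their probe sets had an adjusted p under 0.05, so the sign alone separates these genes.

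Each gene except Usp18 has a main probe set, which matches 1 gene and carries no suffix where such a probe set exists. Among those left it has the highest mean level. For 10 genes a probe set with a suffix that matches 1 gene had a higher mean level than the main one. Among main probe sets, the members with the smallest p on the higher side were Usp9x, Usp9y, Usp28, Usp26 and Usp11. All but Usp28 are on the sex chromosomes. Usp9x encodes a very large deubiquitinase with many substrates in signalling and cell polarity, and Usp9y is its Y-linked copy, known for its link to human male infertility. Usp9x at its main probe set (1420922_at) read 8.67, 8.61, 8.50, 8.50 and 8.55 on wildtype replicates 1, 2, 4, 6 and 7, and 8.86, 9.10 and 8.55 on mutant replicates 3, 5 and 8. Mutant replicates 3 and 5 were above every wildtype array, whereas mutant replicate 8 was within the wildtype range. The means were 8.57 ± 0.07 (SD, n = 5) and 8.84 ± 0.28 (SD, n = 3), a difference of 0.27 (SE 0.11, 95% interval 0.017 to 0.52). Its unadjusted limma p was 0.0388 and its adjusted limma p 1.0, and an exact two-sided permutation gave p = 0.143. The other Usp9x probe sets of similar level differed less, by 0.11 (1428193_at), 0.16 (1428194_at) and 0.082 (1450039_at). Those of lower level differed by 0.31 (1450038_s_at), 0.16 (1450037_at) and -0.035 (1420923_at).

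Usp26, an X-linked gene expressed mainly in testis, read 6.07, 5.97, 5.69, 5.94 and 5.58 in wildtype and 6.19, 6.36 and 5.84 in mutant testis. Again mutant replicates 3 and 5 were the highest of the 8 arrays and mutant replicate 8 fell among the wildtype values. The difference was 0.28 (SE 0.14, 95% interval -0.033 to 0.60). Usp11, which acts in DNA repair, read 7.35 to 7.39 in wildtype testis and 7.42, 7.63 and 7.38 on mutant replicates 3, 5 and 8, a difference of 0.10 (SE 0.07). Only mutant replicate 5 was clearly apart. Usp27x, which can take the place of Usp22 in removing ubiquitin from histone H2B, read 7.07, 7.05, 6.82, 6.94 and 7.001 in wildtype and 7.24, 7.25 and 6.74 in mutant testis at its main probe set, a difference of 0.10 (SE 0.12). Here mutant replicate 8 was the lowest of the 8 arrays, and a second Usp27x probe set differed by -0.028.

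**Figure D2:**
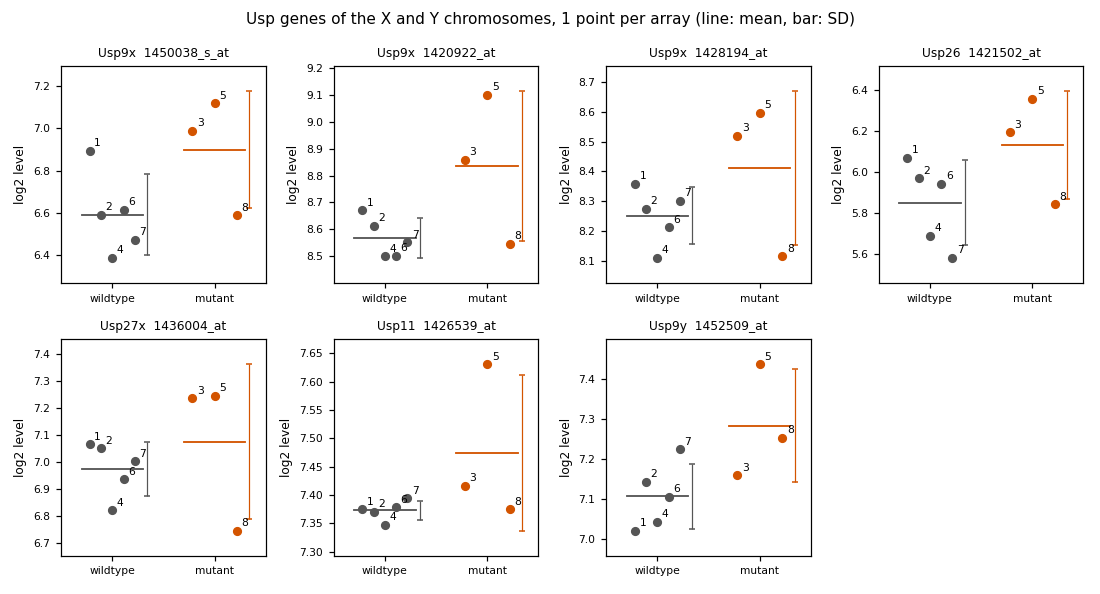
Each panel plots the log2 level (vertical axis) of 1 probe set on 5 wildtype and 3 mutant arrays, with replicate numbers, the mean (line) and SD (bar). The Usp9x panels are the 3 of its 7 probe sets with the largest difference, and the other genes are shown at their main probe sets. In the 6 X-linked panels chosen so, mutant replicates 3 and 5 lie above every wildtype array and mutant replicate 8 lies below both. Usp9y overlaps. At Usp9x probe sets 1420923_at and 1450039_at and Usp27x probe set 1427606_at, not shown, mutant replicates 3 and 5 are not both above every wildtype array.

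Most X-linked Usp probe sets shared this order of arrays. At Usp9x probe sets 1420923_at and 1450039_at and Usp27x probe set 1427606_at, mutant replicates 3 and 5 were not both above every wildtype array. There were 11 Usp probe sets on the X chromosome, 7 of Usp9x, 2 of Usp27x and 1 each of Usp11 and Usp26. Of these, 9 were higher in mutant testis, with a median difference of 0.11, against 63.2% of all 1124 X-linked probe sets with a median of 0.037. The 111 autosomal Usp probe sets had a median of 0.014, and 67 of them were higher. Mutant replicate 8 was below both other mutant arrays at 11 of 11 X-linked Usp probe sets. This held for 51.3% of all X-linked probe sets and 38.2% of all probe sets on the arrays. Over the whole Usp family it held for 72 of 123 members (58.5%), so it was not confined to the X-linked members. The 11 probe sets come from 4 genes, 7 of them from Usp9x, so they are not separate findings.

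Without mutant replicate 8, both remaining mutant arrays were above all 5 wildtype arrays at 8 of the 11 X-linked Usp probe sets, 5 of them of Usp9x, against 19.3% of all X-linked probe sets. Over the whole family, 16 of 123 members (13.0%) then had no overlap, against 11.5% of all probe sets. Of these 15 were higher in mutant testis (12.2%, against 6.67%) and 1 was lower (0.813%, against 4.84%), that of Usp25. The other 7 higher probe sets belonged to Usp3 (2), Usp10, Usp14, Usp22, Usp28 and Usp53. The median shift of all X-linked probe sets, Usp members included, was taken from the wildtype mean. It was 0.048 on mutant replicate 3, 0.093 on mutant replicate 5 and -0.015 on mutant replicate 8. On the wildtype arrays it lay between -0.025 and 0.028. Over all 123 Usp members, most of them autosomal, the shift was similar, at 0.033, 0.069 and -0.027 on mutant replicates 3, 5 and 8. On the wildtype arrays the Usp shift lay between -0.039 and 0.063. Marker means on these arrays did not all move one way. A mean over 10 of 12 spermatogonial genes was 8.29 and 8.28 on mutant replicates 3 and 5, against 7.97 to 8.18 in wildtype testis and 8.05 on mutant replicate 8. The Sertoli mean was 9.38 and 9.27 on these 2 arrays, against 9.13 to 9.20 in wildtype testis and 9.16 on mutant replicate 8. On mutant replicates 3 and 5 the Leydig mean was 9.08 and 8.61 (wildtype 8.50 to 8.78), the peritubular mean 7.84 and 7.72 (wildtype 7.72 to 7.83) and the macrophage mean 7.53 and 7.44 (wildtype 7.26 to 7.53). Between the genotypes, 12 of 18 spermatogonial, 16 of 17 Sertoli, 12 of 13 Leydig, 7 of 8 macrophage, 5 of 10 peritubular, 5 of 14 spermatocyte and 0 of 19 spermatid probe sets were higher in mutant testis. Their part in the values of the X-linked members was not tested.

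Usp9y, the only Y-linked member, read 7.02, 7.14, 7.04, 7.11 and 7.22 in wildtype and 7.16, 7.44 and 7.25 in mutant testis. The groups overlapped through mutant replicate 3, and the difference was 0.18 (SE 0.08, 95% interval -0.006 to 0.36). Unlike the X-linked members, its value on mutant replicate 8 was above all 5 wildtype values. Usp28, an autosomal nuclear deubiquitinase known to stabilise MYC, read 7.91 to 8.11 in wildtype and 8.15, 8.29 and 8.11 in mutant testis, a difference of 0.15 (SE 0.07). Mutant replicate 8 overlapped with the highest wildtype array.

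On the lower side the members with the smallest p were Usp25, Usp24, Usp43, Usp33 and Usp1. Usp25, the closest paralog of Usp28, read 5.89, 6.17, 6.11, 6.37 and 6.24 in wildtype and 5.60, 5.74 and 6.13 in mutant testis at its main probe set (1445861_at). Mutant replicates 3 and 5 were the lowest of the 8 arrays, and mutant replicate 8 was within the wildtype values. The difference was -0.33 (SE 0.14, 95% interval -0.63 to -0.028), at an unadjusted limma p of 0.0350 and an adjusted limma p of 1.0, and the exact permutation p was 0.107. The other Usp25 probe set (1448939_at) differed by -0.070 (SE 0.11).

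The remaining members on the lower side had smaller differences. Usp24, a large nuclear and cytoplasmic deubiquitinase, differed by -0.12 (SE 0.07), Usp33, which acts in receptor recycling, by -0.16 (SE 0.13), and Usp43 by -0.18 (SE 0.11). Usp1, which removes ubiquitin from the repair factors FANCD2 and PCNA and is needed for male fertility in mice, differed by -0.057 (SE 0.06). Of these, Usp24 and Usp43 changed sign between their own probe sets, and Usp33 changed sign to 0.023 without wildtype replicate 7 and mutant replicate 8. Usp29, an imprinted gene next to Peg3, had the smallest p of all members at a probe set (1419237_at) that was not its main one. That probe set read 4.57, 4.44, 4.51, 4.62 and 4.55 in wildtype and 5.03, 4.56 and 4.83 in mutant testis, a difference of 0.27 (SE 0.10). Mutant replicates 3 and 8 were above every wildtype array and mutant replicate 5 was not. The main probe set of Usp29 differed by 0.045 (SE 0.08).

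The members known from male germ cells did not move together. Of 14 probe sets of 7 genes in this group (Usp1, Usp2, Usp8, Usp9y, Usp26, Usp29 and Usp42), 8 were higher and 6 lower in mutant testis, with a median of 0.042. Only the Usp29 probe set above had an unadjusted p under 0.05. Usp2, which has testis-specific transcripts and whose loss impairs male fertility in mice, read 11.89 to 12.02 in wildtype and 11.85 to 12.02 in mutant testis, a difference of -0.020 (SE 0.07). Usp8, an endosomal deubiquitinase that also contributes to acrosome formation, differed by 0.055 (SE 0.08). Usp42, a gene with high testis expression, differed by -0.009 (SE 0.07). The wildtype and mutant ranges of these 3 genes overlapped at every probe set.

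The histone deubiquitinases also overlapped between the genotypes. Of 13 probe sets of 6 genes (Usp3, Usp16, Usp21, Usp22, Usp27x and Usp49), 10 were higher and 3 lower, with a median of 0.061 and a range from -0.028 to 0.11. None had an unadjusted p under 0.05. Usp22, the deubiquitinase of the SAGA complex that acts on H2B, differed by 0.11 (SE 0.11), and Usp3, which acts on H2A, by 0.089 (SE 0.10). Usp21 and Usp16, both also known to act on H2A, differed by 0.049 (SE 0.08) and -0.016 (SE 0.06), with -0.005 (SE 0.09) at the Usp16 probe set of highest mean level, and Usp49, which acts on H2B, by 0.056 (SE 0.12).

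The members that serve the proteasome were as even. Usp14, a reversibly bound proteasome subunit, differed by 0.062 (SE 0.07). Usp5, which takes apart free ubiquitin chains, and its paralog Usp13 differed by -0.009 (SE 0.07) and -0.074 (SE 0.08). Over the 6 probe sets of these genes 3 were higher and 3 lower. Of 23 probe sets of 8 members with roles in DNA repair and the cell cycle, such as Usp7 and Usp10, 12 were higher and 11 lower. Of 17 probe sets of 6 members at membranes and organelles, such as Usp30 on mitochondria, 11 were higher and 6 lower. None of these had an adjusted p under 0.05. Usp18, an interferon-induced gene that removes the ubiquitin-like ISG15, had 1 probe set, shared with another locus, and differed by 0.029 (SE 0.15).

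Paralogs were then set side by side by the differences of their main probe sets. Usp9x and Usp9y were both higher (0.27 and 0.18), as were Usp22 and Usp27x (0.11 and 0.10). Usp25 and Usp28 had opposite signs (-0.33 and 0.15). Usp26 and Usp29, a pair close in sequence, differed by 0.28 and 0.045. For Usp4, Usp15 and Usp11, which share the same domain layout, the differences were -0.021, -0.024 and 0.10. At the probe sets of highest mean level, Usp4 differed by 0.054 and Usp15 by 0.002, so the sign of both rests on the probe set. Usp12 and Usp46, both partners of the WD-repeat protein WDR48, differed by 0.014 and 0.010. The closely related Usp20 and Usp33 differed by 0.002 and -0.16, and Usp53 and Usp54, both thought to lack catalytic activity, by 0.044 and -0.014. Usp38 differed by 0.14. None of these had an adjusted p under 0.05, and differences between paralogs were not tested.

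The members with AGGGGGC in the promoter window had differences of 0.10 for Usp11 and for Usp27x, 0.14 for Usp38 and 0.052 for Usp34. Those of Usp32, Usp4 and Usp15 were 0.018, -0.021 and -0.024, all at main probe sets. These 7 values lay within the range of the other members. At other probe sets Usp4 and Usp15 changed sign, as above. So did Usp27x (-0.028 at 1427606_at) and Usp32 (-0.076 at 1430403_at and -0.004 at 1459857_at).

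A second description concerned wildtype replicate 7 and mutant replicate 8. For each member, the departure of an array is its level minus the mean of the other arrays of its own genotype. As these arrays were already known to stand apart, the departures are given without a test. Both were at least 0.5 in the same direction for 4 of 123 members (3.25%), against 2.91% of all probe sets. The share of the family was thus near that of all probe sets. Both departures were above 0.5 for 3 members (2.44%, against 2.28%), 2 of Usp50 and 1 of Usp12, and below -0.5 for 1 member (0.813%, against 0.630%), of Usp22. At a size of 1 there were 0 members, against 0.856% of all probe sets. With departures of any size, 83 members went the same way on both arrays (67.5%, against 58.8%), of which 56 were below (45.5%, against 34.6%) and 27 above (22%, against 24.2%).

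Usp50, a member thought to lack peptidase activity, gave the largest values. Its probe set 1430760_a_at read 7.77, 7.92, 7.85, 8.07 and 8.90 on wildtype replicates 1, 2, 4, 6 and 7, and 7.35, 7.85 and 8.79 on mutant replicates 3, 5 and 8. Its main probe set, 1453670_at, read 7.44, 7.72, 7.88, 7.84 and 8.45 in wildtype and 7.32, 7.55 and 8.45 in mutant testis. Wildtype replicate 7 and mutant replicate 8 were the highest arrays at both probe sets and separate from the other 6, whereas the genotypes overlapped throughout. The departures were 0.996 and 1.19 at the first probe set and 0.74 and 1.02 at the second. The genotype differences were -0.11 (SE 0.33) and -0.090 (SE 0.27). A further Usp50 probe set, which also matches Polr2l, departed by -0.077 and -0.20, so it did not share this pattern.

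Usp12 differed between its probe sets. Its probe set 1425805_a_at read 6.85, 6.83, 6.77, 7.16 and 8.25 in wildtype and 6.77, 6.93 and 7.82 in mutant testis, with departures of 1.35 and 0.98. The main probe set, 1434483_at, read 8.25, 8.04, 8.02, 7.97 and 8.01 in wildtype and 8.15, 8.15 and 7.92 in mutant testis, with departures of -0.065 and -0.23. The third, 1427478_at, departed by -0.66 on wildtype replicate 7 and by -0.22 on mutant replicate 8. A rise on these arrays was therefore a property of 1 of 3 Usp12 probe sets, and the suffix of that one marks probes that match several transcripts of the gene. The transcripts behind each probe set were not examined.

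Usp22 and Usp3 were below on both arrays, whereas the histone deubiquitinases did not all go one way. Of their 13 probe sets, 8 were below on both arrays, 3 above on both, 1 each of Usp16, Usp21 and Usp49, and 2 went opposite ways. Usp22 at probe set 1456043_at read 7.74, 7.87, 7.55, 7.57 and 7.14 in wildtype and 7.86, 7.86 and 7.18 in mutant testis. Wildtype replicate 7 and mutant replicate 8 were the lowest of the 8 arrays, with departures of -0.54 and -0.68. The main probe set of Usp22 went the same way, with departures of -0.32 and -0.33. All 4 probe sets of Usp3 were below on both arrays, by 0.14 to 0.33 on wildtype replicate 7 and by 0.23 to 0.52 on mutant replicate 8. At Usp3 probe set 1441056_at the values were 6.77, 6.80, 6.57, 6.56 and 6.34 in wildtype and 6.79, 6.92 and 6.33 in mutant testis, again with these 2 arrays lowest.

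**Figure D3:**
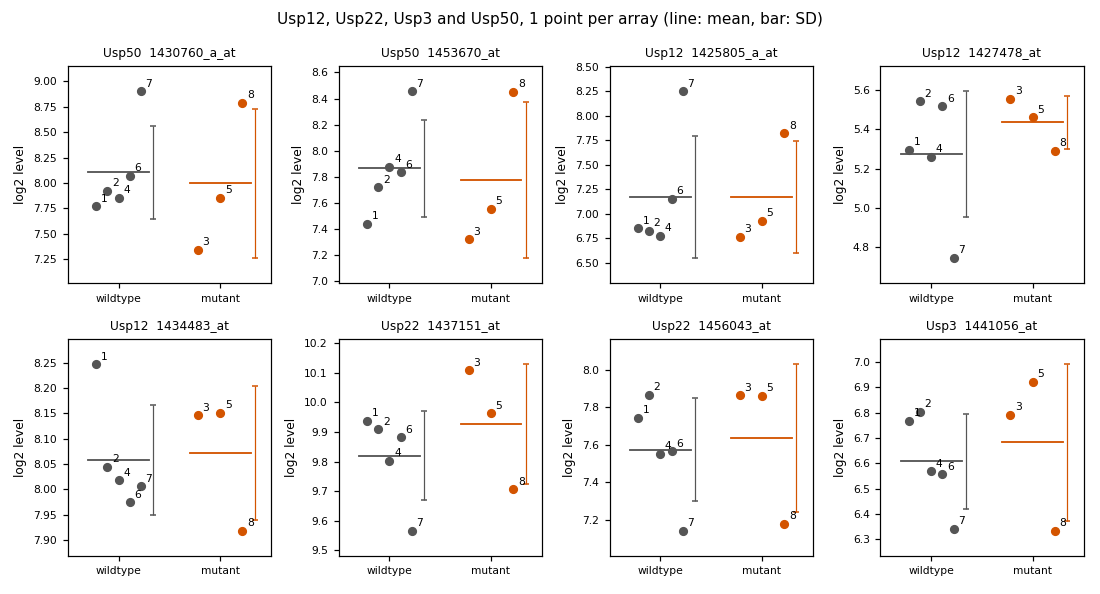
Each panel plots the log2 level (vertical axis) of 1 probe set of Usp50, Usp12, Usp22 or Usp3 on 5 wildtype and 3 mutant arrays, with replicate numbers, the mean (line) and SD (bar). Wildtype replicate 7 and mutant replicate 8 are highest in the Usp50 panels and for 1 probe set of Usp12, and lowest in the Usp22 and Usp3 panels. Usp3 is shown at 1441056_at, its probe set with the lowest departure of mutant replicate 8. At the main Usp3 probe set, not shown, wildtype replicate 4 (8.59) was below wildtype replicate 7 (8.60).

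Other members had smaller departures on both arrays. Above were Usp52 (0.10 and 0.18), Usp25 (0.10 and 0.46), the H2A deubiquitinase Usp21 (0.09 and 0.24), the endoplasmic reticulum-anchored Usp19 (0.07 and 0.10) and Usp2 (0.06 and 0.11), each at its main probe set. Below were Usp26 (-0.34 and -0.43), Usp46 (-0.16 and -0.23), Usp28 (-0.15 and -0.11) and Usp43 (-0.13 and -0.34). Other probe sets of Usp25 (0.24 and -0.33), Usp43 (0.16 and -0.048) and Usp19 went opposite ways on these arrays. The Usp19 probe set of highest mean level departed by -0.065 and 0.023. For comparison, the SD of a member between the wildtype arrays had a median of 0.099. The spermatid genes were at least 0.5 above on both arrays at 19 of 19 probe sets, with median departures of 1.25 and 1.38, and 5 of 12 fat probe sets were as well. Their part in the departures of Usp50, Usp12, Usp22 and Usp3 was not tested.

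**Figure D4:**
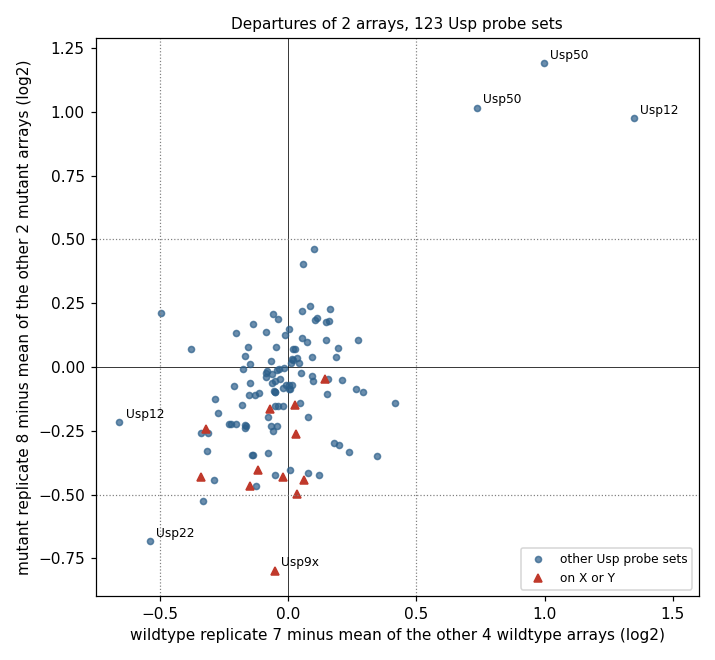
Departure of wildtype replicate 7 (horizontal axis) and of mutant replicate 8 (vertical axis) from the mean of the other arrays of the same genotype, in log2 units, for 123 Usp probe sets, with dotted lines at -0.5 and 0.5 and triangles for the X or Y chromosome. Most points cluster near 0, 2 probe sets of Usp50 and 1 of Usp12 lie at the upper right, and 1 of Usp22 at the lower left.

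Other deubiquitinases and the cofactors of USPs were examined in the same fit. Of 88 probe sets of 39 other deubiquitinases, 43 were higher and 45 lower in mutant testis, with a median of -0.0011, and 0 had an adjusted p under 0.05. At an unadjusted p under 0.05 there was 1 higher, Uchl1, and 1 lower, Stambp, against 1.76% and 1.70% of all probe sets. Without overlap between the genotypes were 1 higher, of Otud5, and 3 lower, of Cyld, Stambp and a probe set shared by Uchl3 and Uchl4, against 2.70% of all probe sets. Uchl1, a ubiquitin hydrolase that also marks spermatogonia, differed by 0.26 (SE 0.08), and the endosomal deubiquitinase Stambp by -0.19 (SE 0.07) at its main probe set. Of 49 probe sets of 16 cofactors and substrates of USPs, 2 were lower at that threshold (1.70% of all probe sets were), both of Eny2, a subunit of the SAGA module that holds Usp22. Those 2 differed by -0.26 (SE 0.10) and -0.21 (SE 0.08), while the main probe set of Eny2 differed by 0.009 (SE 0.09).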

How the data were processed

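RNA from 8 testis samples was hybridised to Affymetrix Mouse430_2 arrays. The deposited table holds 1 log2 level for each array and probe set, which the authors made by RMA background correction and quantile normalisation in Affymetrix and Bioconductor software (versions not given in the sources used here). Such processing evens out the arrays, so a shift shared by most genes would not be seen. The table also holds the authors' group means, fold values and p-values, and 2 further tables their limma output. These were not used. The table names no genome build, so the only coordinates printed are those of the RefSeq promoter table. Members and gene lists were chosen with earlier results of these data known.

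All 45101 probe sets, including 64 controls, were fitted with lmFit and eBayes of limma 3.58.1 (R 4.3.3), with genotype as the only term, unfiltered, two-sided, with Benjamini-Hochberg adjustment. The 95% intervals come from that fit. Single probe sets were also tested by exact permutation over the 56 splits of 8 arrays, where the smallest p is 0.0357. The fit was tested on simulated data. Tables and figures were made with pandas 2.3.3, numpy 2.4.6 and matplotlib 3.10.9 under Python 3.11.15. The number of arrays limits the precision.

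The main probe set of a gene matches 1 gene, carries no suffix (_s, _x or _a) where such a probe set exists, and has the highest mean level among those left. The _a suffix marks several transcripts of the same gene, so this rule can pass over an abundant probe set, as for Usp4, Usp15, Usp16 and Usp19. Usp18 has none, which leaves 48. Genes named are those without overlap between genotypes, the 5 with the smallest p per direction, the 6 with the largest shared departures per direction, the germ cell, sex chromosome, histone and proteasome lists and the paralog pairs. Further members are named where a count of 5 or fewer falls on them, or as examples chosen after their values were seen. Alternatives were leaving out each array, both arrays that stood apart, a block for them, centring, repeated quantile normalisation, an intensity trend with robust prior, array weights, a one-way comparison without shared variance, and subsets of probe sets. A list of ubiquitin and E1 enzyme genes is not reported here. Centring and repeated normalisation of the departures were added after the data were seen.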

Additional observations from a re-analysis of the deposited data

Results flagged for a closer look

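Among the 5 wildtype arrays, 39 measures (named Usp probe sets, the 4 with shared departures of 0.5 and the marker means) were checked for a highest or lowest array well outside the range of the remaining 4. This held for 7 measures. Chance gives about 1 in 20, or 1.95 here, but that figure is no yardstick, since the Usp50 and Usp12 probe sets were taken for their departure on wildtype replicate 7 and the markers were known to differ on that array. Usp50 at probe set 1430760_a_at was 8.90 on wildtype replicate 7, with the nearest other wildtype array at 8.07. Usp12 at probe set 1425805_a_at was 8.25 on the same array, with the nearest at 7.16. Marker means on that array also lay far from the rest, at 10.82 for spermatid genes (nearest 9.06), 6.80 for fat genes (nearest 5.73) and 8.78 for Leydig genes (nearest 8.57). On wildtype replicate 4, Usp43 at probe set 1424866_at was 6.11 (nearest 5.85) and Usp29 at probe set 1427551_at was 4.97 (nearest 4.74). With 3 arrays, the mutant group could not be checked in this way.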

How the results depend on the processing

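The count of Usp probe sets at an adjusted p under 0.05 was 0 under all 18 alternatives, and that of all probe sets was 0 except with the block of wildtype replicate 7 and mutant replicate 8, where it was 1. The median Usp difference stayed above 0, between 0.00046 and 0.039. The 3 Usp probe sets at an unadjusted p under 0.05 became 7 with array weights, 7 with the block, 8 without both arrays and 1 above the median level, and 0 to 8 when 1 array was left out (0 without wildtype replicate 2, 1 without wildtype replicate 6 or mutant replicate 3, 5 without wildtype replicate 1 and 8 without mutant replicate 8). Over all probe sets, 1564 became 680 with 1 probe set per gene, 707 above the median level, 2644 with the block, 2956 without both arrays and 1220 to 2649 with 1 array left out. The 0 members without overlap became 21 without both arrays and 0 to 16 with 1 array left out. There were 16 without mutant replicate 8, 10 without mutant replicate 5, 7 without mutant replicate 3 and 4 without wildtype replicate 7. Without wildtype replicate 1 there were 3, and without wildtype replicate 4 there were 2. Fewer arrays make overlap rarer. Without mutant replicate 8, 13.0% of members had no overlap, against 11.5% of all probe sets. For the other settings the share over all probe sets was not computed, so those counts show nothing particular to the family.

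The 4 members with shared departures of 0.5 became 0 at a size of 1. Among the named genes, 5 of 178 values changed sign. Usp9x was -0.035 at probe set 1420923_at, Usp24 was 0.058 at 1441018_at and 0.035 at 1452868_at, Usp43 was 0.021 at 1451514_at, and Usp33 was 0.023 without both arrays that stood apart. With 1 array left out, Usp9x ranged from 0.13 to 0.41, Usp9y from 0.099 to 0.24, Usp28 from 0.092 to 0.18, Usp26 from 0.17 to 0.43, Usp11 from 0.023 to 0.15, Usp29 (1419237_at) from 0.15 to 0.39, Usp25 from -0.49 to -0.22, Usp24 from -0.16 to -0.075, Usp43 from -0.28 to -0.063, Usp33 from -0.24 to -0.046 and Usp1 from -0.098 to -0.034. The smallest adjusted p of any named gene was 0.751. The cause of these changes was not tested. No paired analysis was possible, because the study's text speaks of littermates but no label gives the litter of a sample.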
